A study of Mus musculus with 7 samples.

Results

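The DNA methyltransferases Dnmt1, Dnmt3a and Dnmt3b and the TET enzymes Tet1, Tet2 and Tet3 were examined in blood stem cells of the mouse fetal liver. Their probe sets were all those that the platform annotation pairs with exactly 1 of these genes. This gave 11 of 22626 probe sets, covering 4 of the 6 genes: 5 for Dnmt3a and 2 each for Dnmt1, Dnmt3b and Tet1. The annotation used here paired no probe set with Tet2 or Tet3, which were therefore not analysed here. No probe set named a member together with another gene.

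Stem cells were taken at embryonic day 14.5 from embryos homozygous for an allele of TFIIAα-β whose product cannot be cleaved (TFIIA nc/nc, 3 samples) and from wild-type embryos (4 samples). Both came from crosses of heterozygous parents, and the labels name no Cre or tissue-specific promoter. Littermates of a genotype were pooled, with 2, 2 and 4 embryos in the TFIIA nc/nc samples and 1, 1, 4 and 3 in those of wild type. The double sort kept cells lacking lineage antigens and carrying c-Kit, CD150 and Sca-1, which were measured on 1 Affymetrix array per sample. The labels name no treatment, no second allele and no difference in age between the groups, and call the samples biological replicates, so p-values measure the spread between these pools of embryos.

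Methyl groups on cytosines of CpG dinucleotides are placed by DNA methyltransferases. Dnmt3a and Dnmt3b set new marks, whereas Dnmt1 copies existing marks onto the daughter strand at replication. TET enzymes oxidise methylcytosine, the first step of its removal. In mouse blood, stem cells that lack Dnmt3a self-renew at the expense of differentiation, and those that lack Dnmt1 fail to maintain themselves. TFIIA is a general transcription factor that holds the TATA-binding protein TBP on core promoters, and its large subunit is normally cut by the protease Taspase1.

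Because TFIIA works at core promoters, the start regions of the de novo methyltransferases are shown first. RefSeq (GRCm38.p6) lists 10 start windows for the 6 genes, and the 250 bases before each start were read. The letters TATAAA, searched on both strands, occurred in 0 of the 10 windows, and 12.4% of 32851 windows of the same length held them. CpG dinucleotides, the substrate of these enzymes, are in capitals below. The upstream Dnmt3a start (chr12:3806730-3806979, + strand) held 38 CpG, the internal Dnmt3a start (chr12:3891494-3891743, + strand) 15, and the Dnmt3b start (chr2:153649199-153649448, + strand) 21, against a median of 6 over all windows.
Dnmt3a upstream start: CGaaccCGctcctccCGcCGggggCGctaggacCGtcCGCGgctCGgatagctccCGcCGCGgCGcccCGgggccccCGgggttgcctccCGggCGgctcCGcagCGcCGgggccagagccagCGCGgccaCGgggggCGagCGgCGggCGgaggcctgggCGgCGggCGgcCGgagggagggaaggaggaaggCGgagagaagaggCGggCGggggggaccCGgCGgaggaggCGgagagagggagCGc
Dnmt3a internal start: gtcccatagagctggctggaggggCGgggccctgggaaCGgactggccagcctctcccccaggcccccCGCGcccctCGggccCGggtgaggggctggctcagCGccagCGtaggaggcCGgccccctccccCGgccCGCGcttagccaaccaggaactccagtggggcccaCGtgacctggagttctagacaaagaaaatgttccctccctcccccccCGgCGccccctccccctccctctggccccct
Dnmt3b start: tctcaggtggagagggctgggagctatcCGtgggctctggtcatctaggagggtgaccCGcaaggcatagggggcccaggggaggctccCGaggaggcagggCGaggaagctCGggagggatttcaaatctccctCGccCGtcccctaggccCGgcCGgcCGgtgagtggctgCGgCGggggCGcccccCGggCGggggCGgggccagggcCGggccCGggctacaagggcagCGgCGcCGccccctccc
The upstream Dnmt3a sequence is the densest of the 3 in CpG, and 98.1% of windows held fewer. A further annotated Dnmt3a start overlaps the upstream window, with 40 CpG. The 3 Dnmt1 windows held 2, 7 and 26 CpG, and the Tet1, Tet2 and Tet3 windows 15, 51 and 17. The arrays read the 3' part of the transcripts and cannot tell which start was used.

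The sorted cells carried stem cell markers. The 9 measured stem cell genes, among them Kit and Ptprc, averaged log2 levels of 6.89, 6.995 and 7.24 over TFIIA nc/nc replicates 1 to 3. Over wild-type replicates 1 to 4 they averaged 6.98, 7.34, 7.34 and 7.41. Mecom was dim in all 7 arrays (2.08 to 3.15). The 4 measured T cell antigens averaged 2.74 to 3.09 in every array. Transcripts of liver endothelium stood apart: 16 endothelial genes averaged 6.56, 7.06 and 3.84 over TFIIA nc/nc replicates 1 to 3, and 6.79, 3.78, 4.03 and 3.74 over wild-type replicates 1 to 4. Hepatocyte genes (13 of 15 measured) averaged 4.40, 4.75 and 3.48 over TFIIA nc/nc replicates 1 to 3. Over wild-type replicates 1 to 4 they averaged 4.08, 3.51, 3.38 and 3.54. The arrays high in endothelial genes were thus also the highest in hepatocyte genes and the lowest in the stem cell genes. Macrophage genes (12 of 13) averaged 3.68 to 4.78 in TFIIA nc/nc and 2.82 to 4.16 in wild type. Erythroid genes (9 of 13) averaged 3.88 to 4.34 in TFIIA nc/nc and 3.72 to 4.46 in wild type. Xist, which coats the inactive X chromosome of female cells, read 11.4, 11.03 and 9.76 in TFIIA nc/nc and 4.49, 4.47, 10.7 and 10.1 in wild type. Wild-type replicates 1 and 2, low in Xist, held 1 embryo each. In such sorts, fewer cells of a type and less RNA per cell cannot be told apart.

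All 5 probe sets of Dnmt3a read lower on average in TFIIA nc/nc, by 0.17 to 0.75 log2 units, but none passed the threshold. In Dnmt3b, Dnmt1 and Tet1 the groups overlapped in every probe set. Over the 11 probe sets, 0 passed at a limma Benjamini-Hochberg adjusted p of 0.05, against 0.00442% of all 22626 (1 probe set, of Galc). The lowest adjusted p among them was 0.984. An unadjusted limma p under 0.05 was found for 2, both of Dnmt3a and lower, where all probe sets gave 4% in either direction and 2.09% lower. Of the 11, 10 were lower in TFIIA nc/nc, against 51.9% of all probe sets, with a median difference of −0.17, against −0.01 over all. The count of 10 dropped to 6 without TFIIA nc/nc replicate 1 (median −0.05) and to 6 among the low-endothelial arrays (median −0.02). Probe sets of 1 gene share a target and are not independent.

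**Figure D1:**
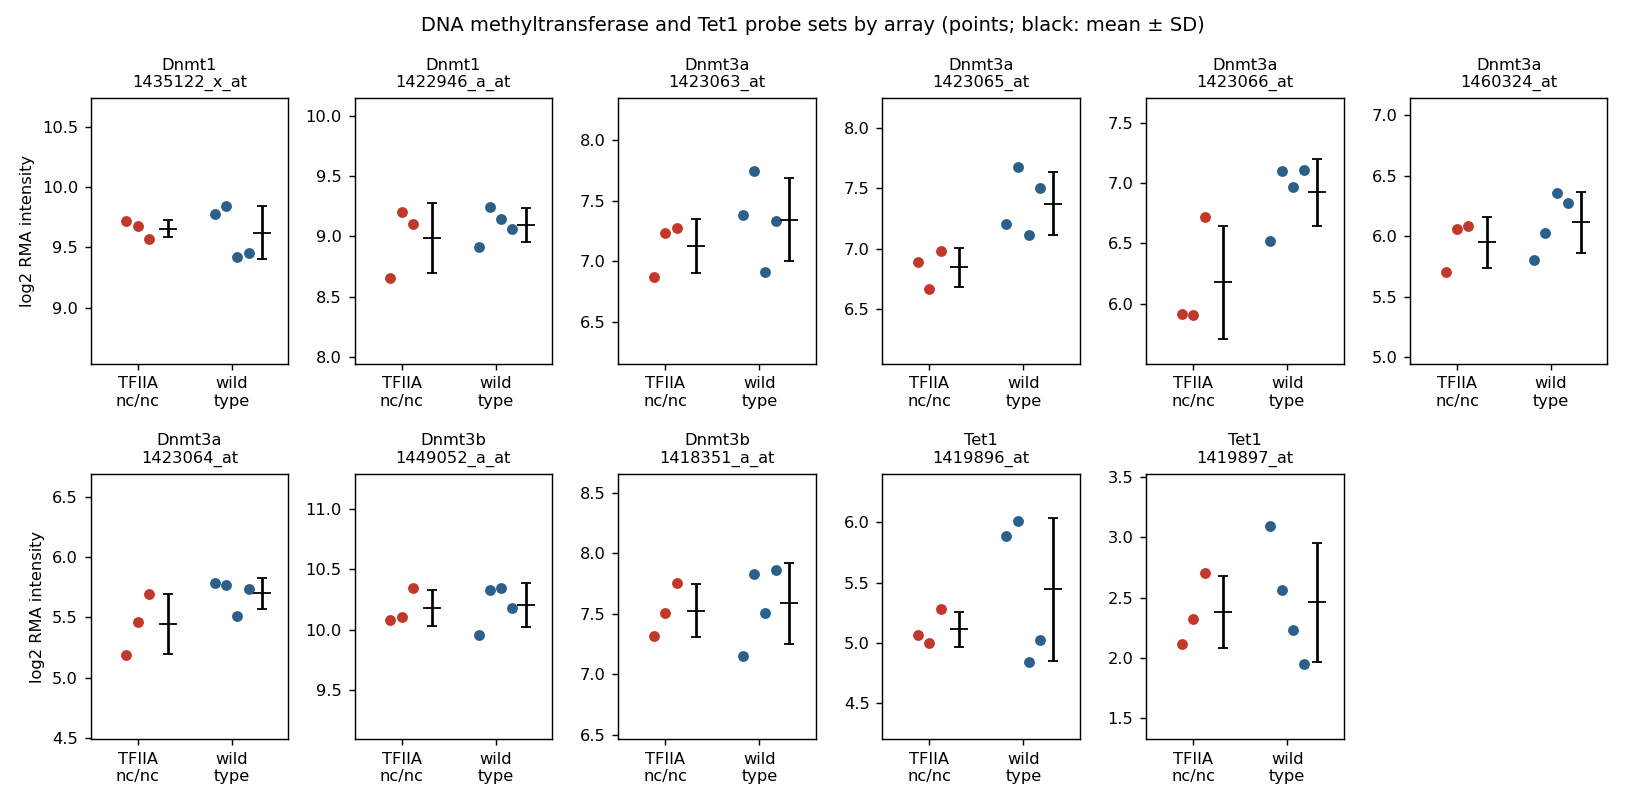
Log2 RMA intensity (vertical axis, each panel spanning the same range in log2 units) of the 11 probe sets in the 3 TFIIA nc/nc (red) and 4 wild-type samples (blue), with mean ± SD in black. In Dnmt3a 1423065_at all TFIIA nc/nc points lie below all wild-type points, and in the other 10 panels the groups overlap.

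The clearest separation was in Dnmt3a probe set 1423065_at. It read 6.89, 6.67 and 6.98 in TFIIA nc/nc replicates 1 to 3, against 7.21, 7.68, 7.11 and 7.502 in wild-type replicates 1 to 4. Every TFIIA nc/nc sample thus lay below every wild-type sample, a pattern seen in 2.81% of all probe sets in that direction. The means were 6.85 ± 0.16 for TFIIA nc/nc (SD, n = 3) and 7.38 ± 0.26 for wild type (SD, n = 4). The difference was −0.53 (SE 0.18, 95% interval −0.93 to −0.12, limma, Benjamini-Hochberg adjusted p = 0.984). The exact 2-sided permutation p was 0.0571, where 0.0286 is the smallest that 35 assignments of the arrays allow.

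The largest difference of the family was in Dnmt3a probe set 1423066_at. It read 5.91, 5.91 and 6.72 in TFIIA nc/nc replicates 1 to 3, against 6.52, 7.10, 6.97 and 7.11 in wild-type replicates 1 to 4. TFIIA nc/nc replicate 3 lay above wild-type replicate 1, so the groups overlapped. The difference was −0.75 (SE 0.24, 95% interval −1.29 to −0.20, limma, adjusted p = 0.984, exact permutation p = 0.0857). The 3 arrays with high endothelial transcripts were the 3 lowest for this probe set, at 5.91, 5.91 and 6.52, and the other 4 read 6.72 to 7.11. Within the high-endothelial arrays the TFIIA nc/nc mean was 0.61 lower than the only wild-type value (5.91 against 6.52), and within the low-endothelial arrays the only TFIIA nc/nc value was 0.34 lower than the wild-type mean (6.72 against 7.06). For 1423065_at those differences were −0.43 and −0.45.

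**Figure D2:**
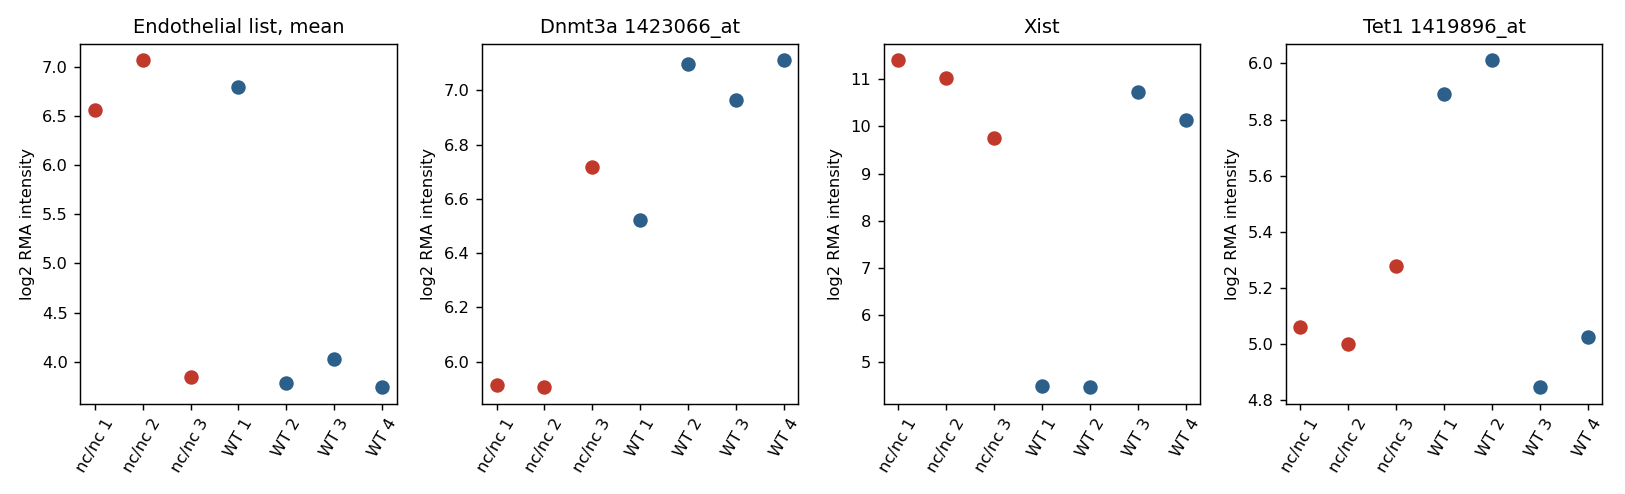
Log2 RMA intensity (vertical axes, with different ranges) in each array, TFIIA nc/nc (nc/nc, red) and wild type (WT, blue), for the mean of 16 endothelial genes, Dnmt3a 1423066_at, Xist and Tet1 1419896_at. The 3 arrays high in endothelial genes are the lowest for this Dnmt3a probe set, and the 2 arrays low in Xist are the highest for Tet1.

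The remaining Dnmt3a probe sets had overlapping groups and 95% intervals that included 0. The brightest, 1423063_at, read 6.87, 7.23 and 7.28 in TFIIA nc/nc and 7.39, 7.75, 6.91 and 7.33 in wild type (difference −0.22, SE 0.21). Probe set 1423064_at read 5.19, 5.46 and 5.69 in TFIIA nc/nc and 5.78, 5.77, 5.51 and 5.73 in wild type (difference −0.25, SE 0.16). Probe set 1460324_at read 5.70, 6.06 and 6.08 in TFIIA nc/nc and 5.80, 6.03, 6.36 and 6.28 in wild type (difference −0.17, SE 0.18). In all 3, samples of both genotypes were interleaved, and the exact permutation p was 0.314, 0.114 and 0.4. Of 153 genes with 5 probe sets of their own, 10 (6.54%) had all 5 lower in TFIIA nc/nc, as Dnmt3a did. Limited to the 4 low-endothelial arrays, of which 1 is TFIIA nc/nc, 4 of the 5 Dnmt3a probe sets were lower, with a median difference of −0.14 against −0.25 over all arrays. With the endothelial mean as a covariate all 5 were lower (median −0.21), and with the stem cell marker mean as a covariate, a setting chosen after seeing the data, 4 were (median −0.18). Without TFIIA nc/nc replicate 1 all 5 were lower, with a median of −0.12. The part of these other cells in the Dnmt3a values was not tested.

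Whether the Dnmt3a probe sets differed in their shift was examined within each array. The level of 1423063_at minus that of 1423066_at was 0.96, 1.33 and 0.56 in TFIIA nc/nc and 0.86, 0.65, −0.06 and 0.22 in wild type. The change of 0.53 had an exact permutation p of 0.171, adjusted to 0.6 over the 7 such pairs of the 4 genes. It was 0.34 without TFIIA nc/nc replicate 2, and leaving out any 1 array gave 0.34 to 0.72. All 5 Dnmt3a probe sets are annotated to the same expressed sequence, so they share a target. The pseudogenes Dnmt3a-ps1 and, on the same chromosome as Dnmt3b, Dnmt3b-ps1 are in the RefSeq table, and cross-hybridisation to them was not tested.

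**Figure D3:**
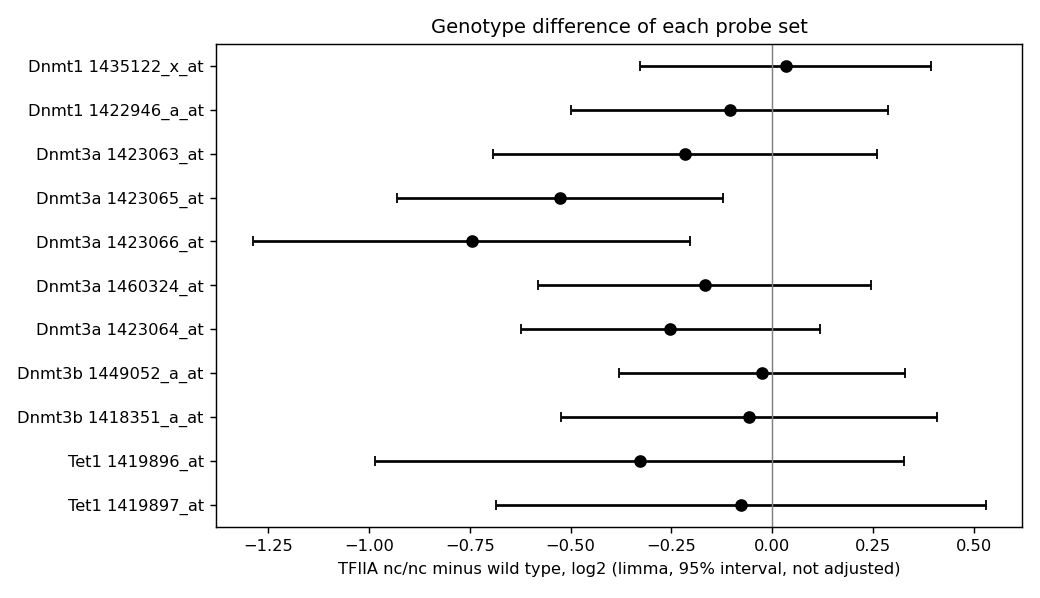
Log2 difference, TFIIA nc/nc minus wild type (horizontal axis), for each of the 11 probe sets, with the limma 95% interval, not adjusted for the number of probe sets. The intervals of Dnmt3a 1423065_at and 1423066_at lie below 0 and the other 9 include 0.

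Dnmt3b, the other de novo methyltransferase, gave interleaved values in the genotypes. Its brighter probe set 1449052_a_at read 10.1, 10.1 and 10.3 in TFIIA nc/nc replicates 1 to 3, against 9.96, 10.3, 10.3 and 10.2 in wild-type replicates 1 to 4. The difference was −0.03 (SE 0.16, 95% interval −0.38 to 0.33, exact permutation p = 0.886), so a change of more than 0.38 log2 units lay outside the interval. The dimmer 1418351_a_at read 7.32, 7.51 and 7.75 in TFIIA nc/nc and 7.15, 7.83, 7.504 and 7.86 in wild type (difference −0.06, SE 0.21). Wild-type replicate 1 was the lowest array for both. The signal of 1449052_a_at exceeded that of 97.9% to 98.4% of probe sets in every array, and its SD over the 7 arrays, 0.15, was at the 18.7 percentile of the 8360 probe sets with a mean log2 level of at least 5.

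Dnmt1, the maintenance methyltransferase, gave overlapping values too. Its SD over the 7 arrays was at the 20.9 and 37.6 percentiles of those probe sets. Probe set 1435122_x_at read 9.72, 9.68 and 9.57 in TFIIA nc/nc replicates 1 to 3, against 9.78, 9.84, 9.42 and 9.45 in wild-type replicates 1 to 4. The TFIIA nc/nc samples all fell inside the wild-type range, and the difference was 0.03 (SE 0.16, 95% interval −0.33 to 0.39, exact permutation p = 0.829). Probe set 1422946_a_at read 8.65, 9.20 and 9.10 in TFIIA nc/nc and 8.92, 9.25, 9.15 and 9.06 in wild type (difference −0.11, SE 0.17, exact permutation p = 0.571). Its lowest sample was TFIIA nc/nc replicate 1, and without it the difference was 0.06. The names of these sets mark probes that may match other transcripts (x_at) or several transcripts of a gene (a_at).

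Tet1, the only TET enzyme measured, varied within wild type. Probe set 1419896_at read 5.06, 5.001 and 5.28 in TFIIA nc/nc replicates 1 to 3, against 5.89, 6.01, 4.85 and 5.03 in wild-type replicates 1 to 4. Wild-type replicates 1 and 2 thus stood above the other 5 arrays, which spanned 4.85 to 5.28. The means were 5.12 ± 0.15 for TFIIA nc/nc (SD, n = 3) and 5.44 ± 0.59 for wild type (SD, n = 4), a difference of −0.33 (SE 0.29, exact permutation p = 0.4). Leaving out 1 array gave −0.53 (without wild-type replicate 3) to −0.14 (without wild-type replicate 2), and −0.18 without wild-type replicate 1. Wild-type replicates 1 and 2 are the samples of 1 embryo each and the arrays of low Xist, and these features cannot be told apart. Without them, among samples of more than 1 embryo, the difference was 0.18, and with the sex measure (Y-linked genes minus Xist) as a covariate it was 0.22. The same arrays were the highest for Dnmt1 1435122_x_at, at 9.78 and 9.84, and for Dnmt3a 1423063_at, at 7.39 and 7.75. This held for Dnmt3a 1423064_at too, at 5.78 and 5.77. It did not hold for Dnmt1 1422946_a_at or for Dnmt3a 1423065_at, 1423066_at and 1460324_at. Nor did it hold for Tet1 1419897_at or for Dnmt3b 1449052_a_at and 1418351_a_at. The other Tet1 probe set, 1419897_at, read 2.12, 2.32 and 2.70 in TFIIA nc/nc and 3.09, 2.56, 2.23 and 1.95 in wild type, in the dim range below the array medians of 3.69 to 3.82.

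The genes whose levels ran most like each member over the 7 arrays were taken from those with a mean log2 level of at least 6. Each member was represented by its probe set of highest mean alone, such as 1435122_x_at for Dnmt1 and 1423063_at for Dnmt3a. Other probe sets of a member were not compared and can run otherwise. Dnmt1 1422946_a_at was lowest in TFIIA nc/nc replicate 1 (8.65), whereas 1435122_x_at was lowest in wild-type replicate 3 (9.42). With 7 arrays and up to 3924 genes compared, high correlations arise readily, and they are given as a description. Tet1 ran most like Rest, a repressor of neuronal genes (Pearson r = 0.986), Foxp1, a forkhead factor (0.96), and Hbp1, a repressor of cell cycle genes (0.956). Rest read 6.22, 6.38 and 6.57 in TFIIA nc/nc and 7.16, 7.26, 6.22 and 6.39 in wild type, so the same 2 wild-type arrays stood above the rest. Dnmt1 ran most like Atrx, a chromatin remodeller (0.986), the mitochondrial ribosomal gene Mrpl15 (0.964) and the histone methyltransferase gene Kmt2c (0.961). Dnmt3a ran most like the antigen-presenting gene Cd1d1 (0.983), Hsd17b11 (0.972) and the Mediator gene Med15 (0.967). Dnmt3b ran most like the mitochondrial ribosomal gene Mrpl43 (0.963), the fatty acid oxidation gene Acadm (0.955) and the peroxiredoxin gene Prdx4 (0.935).

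The pathway lists hold 89 genes, S phase genes among them, and 70 were measured. Of these, 0 passed in limma over all probe sets, where 0.00807% of all genes did. An unadjusted p under 0.05 was reached by 3 of the 70, 1 higher and 2 lower in TFIIA nc/nc, against 4.43% of all 12393 genes. Of the 70, 43 were measured higher, against 48.1% of all genes, with a median difference of 0.05 against −0.01. Of the 21 measured S phase genes in these lists, 16 were higher and 5 lower. The groups did not overlap for 6 of the 70, 5 higher and 1 lower, against 6.3% of all genes in either direction and 3.23% higher.

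**Figure D4:**
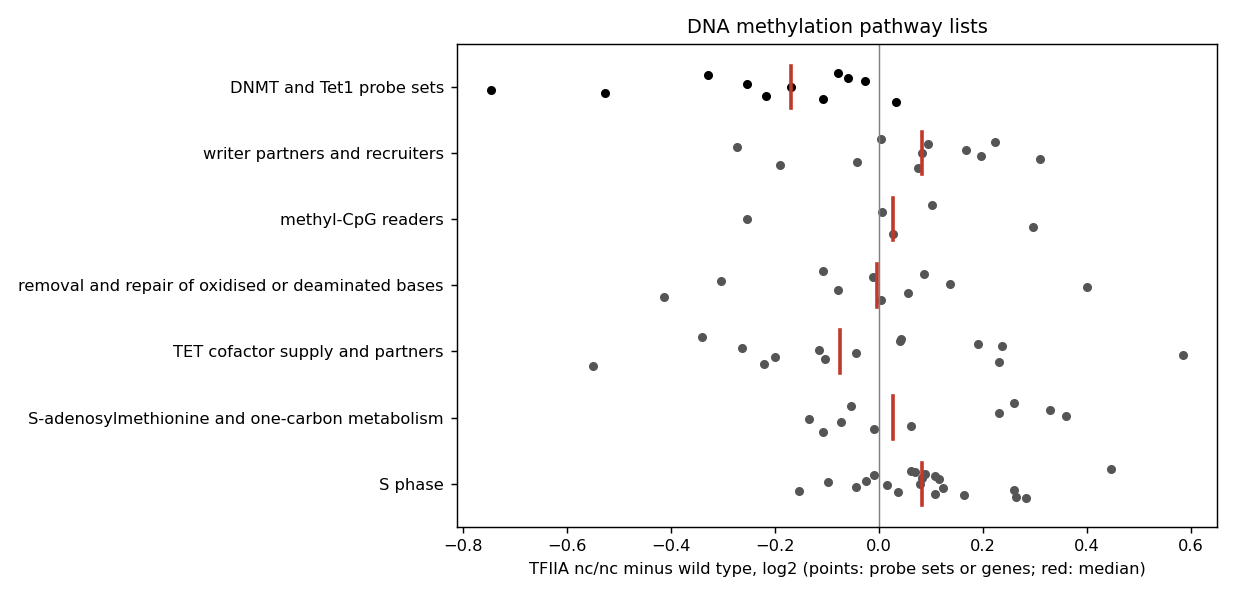
Log2 difference, TFIIA nc/nc minus wild type, for the 11 member probe sets (black) and for the genes of 6 pathway lists (grey). The lists include S phase genes, and medians are in red. The medians of the pathway lists lie between −0.07 and 0.08, and that of the member probe sets at −0.17.

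Of 11 measured genes that help or recruit the writers, 8 were measured higher and 3 lower, with a median of 0.08 and no unadjusted p under 0.05. The members with the smallest p were Dppa3, which protects methylation in the early embryo, at a difference of 0.31 (SE 0.15), the deubiquitinase Usp7 at 0.22 and Dmap1, a Dnmt1-binding protein, at −0.19. Dppa3 was dim, at 2.41 in TFIIA nc/nc and 2.10 in wild type. Uhrf1, which brings Dnmt1 to hemimethylated DNA and is named for that role after its values were seen, read 8.66, 8.88 and 8.70 in TFIIA nc/nc and 8.02, 8.62, 8.96 and 9.01 in wild type. Its groups overlapped, with a difference of 0.10 (SE 0.24). Dnmt3l, the catalytically inactive partner of Dnmt3a, was dim in all arrays (1.86 to 2.48).

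Of 5 measured readers of methyl-CpG, 4 were measured higher and 1 lower, led by Mbd2 at 0.30 (SE 0.19), Mbd3 at −0.25 and Zbtb33 at 0.10. Zbtb33 was dim, at 2.08 in TFIIA nc/nc and 1.97 in wild type. Of 10 genes that remove or repair oxidised or deaminated bases, 5 were higher and 5 lower. Apobec1, a cytidine deaminase, read 4.88, 4.65 and 4.93 in TFIIA nc/nc and 5.49, 5.26, 5.19 and 5.001 in wild type. Its groups did not overlap, as in 5.65% of all probe sets, and the difference of −0.41 (SE 0.16, limma, adjusted p = 0.984) did not pass. Gadd45g and the glycosylase gene Neil3 followed at 0.40 and −0.30. Gadd45g was dim, at 3.72 in TFIIA nc/nc and 3.32 in wild type.

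TET enzymes need α-ketoglutarate, which isocitrate dehydrogenases make. Of 14 measured genes of this supply and of TET partners, 6 were higher and 8 lower in TFIIA nc/nc. Idh3a, a subunit of the mitochondrial isocitrate dehydrogenase, read 8.30, 8.54 and 8.30 in TFIIA nc/nc and 7.80, 7.86, 7.46 and 8.06 in wild type. Its groups did not overlap, and the difference of 0.59 (SE 0.17, limma, adjusted p = 0.984, exact permutation p = 0.0571) did not pass. In all, 4 of the 14 genes had groups that did not overlap, each higher in TFIIA nc/nc, as were 3.23% of all genes. The other 3 and their partner subunits are named after their values were seen, and any bearing on TET activity was not tested. Fumarate and succinate inhibit TET enzymes, and these 3 genes encode enzymes, or subunits of them, that use them up. Fh1, fumarate hydratase, read 9.35, 9.52 and 9.502 in TFIIA nc/nc and 9.22, 9.17, 9.21 and 9.299 in wild type (difference 0.23, SE 0.13). Sdha, a subunit of succinate dehydrogenase, read 8.97, 8.78 and 8.77 in TFIIA nc/nc and 8.63, 8.597, 8.49 and 8.69 in wild type (difference 0.24, SE 0.14). Both had an exact permutation p of 0.0286, the smallest that 35 assignments of the arrays allow, and did not pass in limma (adjusted p = 0.984). Sdhb, a further succinate dehydrogenase subunit, differed by 0.19 (exact permutation p = 0.0571), whereas the subunits Sdhc and Sdhd had overlapping groups and differed by 0.04 each. Idh3b and Idh3g, partner subunits of Idh3a, differed by −0.04 and −0.11. Idh1 and Idh2, the other isocitrate dehydrogenase genes of the list, also named after their values were seen, differed by −0.10 and −0.20. Cxxc5, a CpG-binding protein, differed by −0.55 (SE 0.22) with overlapping groups, and Wt1, a TET-binding factor, was dim and differed by −0.34.

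Of 10 measured genes of S-adenosylmethionine and folate metabolism, which supplies the methyl group, 5 were higher and 5 lower. The smallest p were those of Mthfd1 at 0.36 (SE 0.20), the folate carrier Slc19a1 at 0.26 and the mitochondrial Mthfd2 at 0.23. The groups of Mthfd2 did not overlap, as in 6.3% of all genes. Of 21 S phase genes, given because Dnmt1 acts at replication, 16 were higher and 5 lower, with a median of 0.08 and no unadjusted p under 0.05. They were led by Tyms at 0.45, Ccne1 at 0.28 and Cdc45 at 0.16. Tyms was dim, at 3.95 in TFIIA nc/nc and 3.50 in wild type. With the S phase mean as a covariate, Dnmt1 1435122_x_at differed by 0.12 and 1422946_a_at by −0.20, neither past the threshold.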

How the data were processed

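The authors deposited an RMA intensity for each probe set. Per the submitters' processing notes they used Affymetrix Expression Console, with no version stated. The values lay on a linear scale, so log2 was taken with no pseudocount. Probe sets were named by GEO's platform annotation. Symbols were taken from a RefSeq table of GRCm38.p6 for the 12369 of 12393 genes matched by Entrez identifier. Of 22690 probe sets, 64 controls were left out. The genotypes were compared on 22626 probe sets and 7 arrays with limma 3.58.1 in R 4.3.3, without covariates, Benjamini-Hochberg adjusted at 0.05. On simulated data the fit was tested for recovery of known changes. Single probe sets were also compared by an exact 2-sided permutation test. Pathway genes were represented by their probe set of highest mean; up to 3 of smallest p per list were named. Members and lists were chosen with earlier results of these data known. Nothing in the labels says the genotypes shared litters or batches, and no array batch was tested. Precision is limited by the number of arrays. Differences are TFIIA nc/nc minus wild type in log2 units. Plots used matplotlib 3.10.9 in Python 3.11.15.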

Additional observations from a re-analysis of the deposited data

Results flagged for a closer look

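In 29 probe sets of the members and of the named pathway genes, each wild-type group of 4 was examined for a sample far from the other 3, which chance gives in about 1 of 20 groups. This was found in 2. Dmap1 read 5.65, 5.78 and 5.56 in TFIIA nc/nc and 5.80, 5.76, 6.07 and 5.78 in wild type, where replicate 3 stood apart. Gadd45g, a stress-response gene, read 3.82, 3.94 and 3.42 in TFIIA nc/nc and 3.85, 3.20, 3.13 and 3.13 in wild type, where replicate 1 stood apart. No DNA methyltransferase or Tet1 probe set had such a sample.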

How the results depend on the processing

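Among 22 other settings, 0 of the member probe sets and 0 of the pathway genes passed the threshold under any. Over all probe sets 1 passed, with 0 among the 4 arrays of low endothelial transcripts, 14 among samples of more than 1 embryo, and 1 to 2 when 1 array was left out. Dnmt3a 1423065_at and 1423066_at were lower in TFIIA nc/nc in every setting run for them, at −0.65 to −0.40 and −1.01 to −0.34. The settings of 1 probe set per gene and of the filter above the median level do not cover every probe set. The other Dnmt3a probe sets changed sign in few settings: 1423063_at was 0.12 with the sex measure and 0.00758 in samples of more than 1 embryo, 1423064_at 0.0187 in the low-endothelial arrays and 1460324_at 0.0617 with the stem cell marker mean. Leaving out 1 array, they spanned −0.36 to −0.08, −0.38 to −0.12 and −0.27 to −0.05. Tet1 1419896_at changed sign to 0.22 with the sex measure and 0.18 in samples of more than 1 embryo, and spanned −0.53 to −0.14 leaving out 1 array. Tet1 1419897_at was 0.35, 0.086, 0.46 and 0.29 with the sex measure, the S phase mean, the low-endothelial arrays and samples of more than 1 embryo, and −0.25 to 0.13 leaving out 1 array. Near-zero differences also changed sign. Dnmt1 1435122_x_at was −0.0292 with array weights, −0.0246 with the replicate block, −0.0317 with the endothelial mean, −0.0851 with the stem cell marker mean and −0.0334 to 0.106 leaving out 1 array. Dnmt1 1422946_a_at was 0.0502 with the stem cell marker mean and −0.215 to 0.0603 leaving out 1 array. Dnmt3b 1449052_a_at was 0.0932 with the endothelial mean, 0.062 in the low-endothelial arrays, 0.149 with the stem cell marker mean and −0.111 to 0.022 leaving out 1 array. Dnmt3b 1418351_a_at was 0.0326 with the replicate block, 0.135 with the endothelial mean, 0.0204 in the low-endothelial arrays, 0.263 with the stem cell marker mean and −0.205 to 0.0446 leaving out 1 array. The causes were not tested.

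For the change between probe sets of a gene, Dnmt3a 1423063_at minus 1423064_at became −0.00997 with log2(value + 16) and −0.0459 to 0.15 leaving out 1 array. For 1423063_at minus 1423066_at leaving out 1 array spanned 0.34 to 0.72, and it also spanned −0.0563 to 0.25 for Dnmt1, −0.27 to 0.12 for Dnmt3a 1423063_at minus 1460324_at and −0.0666 to 0.11 for Dnmt3b. The replicate number as a block, on replicates 1 to 3, left 1 probe set past the threshold. Deviations of same-numbered samples correlated at 0.364, −0.145 and 0.048, and 1 of 3 TFIIA nc/nc samples correlated best with its own number. With so few samples these values cannot decide whether same-numbered samples shared a batch or litter. Differences of dim probe sets such as Tet1 1419897_at tend to be understated.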
